A study of Mus musculus with 24 samples.

Results

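The genes of de novo lipogenesis were examined in the livers of lipodystrophic and control mice, as 10 genes fixed by name: the enzymes *Fasn*, *Acaca*, *Acacb*, *Acly*, *Scd1*, *Elovl6*, and *Me1*, the transcription factors *Srebf1* and *Mlxipl*, and the cofactor *Thrsp*. All 10 were found among the 23972 genes of the count table. Liver RNA-Seq was measured in 24 libraries of female mice. All mice carried *Lmna* fl/fl alleles, with *loxP* sites around exons 10 and 11. Controls lacked *Adipoq*-Cre, and *Lmna* ADKO mice carried *Adipoq*-Cre, which deletes *Lmna* in adipocytes, so that liver *Lmna* checks no label. Mice were 12 to 14 weeks old at the start, were fed a 60% high-fat diet, were housed at 22°C, and after 4 weeks of diet received vehicle or an adeno-associated virus expressing mouse FGF21. Livers were taken 8 weeks later, from 7 control vehicle, 3 control FGF21, 6 *Lmna* ADKO vehicle, and 8 *Lmna* ADKO FGF21 mice.

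The libraries held 19863304 to 21510054 counts each. The labels call the treatment a rescue, and counts on *Fgf21* did not separate the treated from the vehicle groups: they spanned 1.90 to 10.8 CPM (counts scaled to library size) in control vehicle, 3.14 to 7.40 in control FGF21, 4.63 to 10.6 in *Lmna* ADKO vehicle, and 2.19 to 9.99 in *Lmna* ADKO FGF21 livers. The authors report that plasma FGF21 rose after transduction in this experiment, out of proportion in *Lmna* ADKO mice compared with controls. How the transgene was counted was not tested. *Lmna* itself was at 18.6 ± 2.47 CPM (SD, n = 7) in control vehicle and 26.7 ± 2.57 (n = 6) in *Lmna* ADKO vehicle livers. In 3 libraries, *Lmna* ADKO FGF21 7, control FGF21 3, and control vehicle 3, long genes were counted low relative to the genotype's median. Log2 CPM less that median had a slope on log2 exonic length of -0.331, -0.289, and -0.154. In the others the slope was -0.109 to 0.128, over 9694 protein-coding genes. The animal numbers had 3 digits in 6 of 7 control vehicle and 1 of 6 *Lmna* ADKO vehicle mice and in none of the 3 control FGF21 and 4 of 8 *Lmna* ADKO FGF21 mice. Genotype under vehicle and treatment in controls thus went largely with the number series, which was tried as a covariate in the fits of single genes. Hepatocyte markers summed to 75210.1 to 110909 CPM in *Lmna* ADKO vehicle and 89847 to 151449 in control vehicle livers, and 3 of 10 (*Ahsg*, *Serpina1a*, and *Cps1*) fell with genotype. Stellate cell markers summed to 283 to 456 against 196 to 309 CPM with 4 of 8 higher, cholangiocyte markers to 85.8 to 196 against 27.1 to 51.2 with 2 of 6 higher, macrophage markers to 426 to 733 against 562 to 771 with 1 of 8 higher, endothelial markers to 207 to 262 against 217 to 273 with 1 of 6 higher, and blood cell markers to 519.6 to 2563 against 200.4 to 1421 with 1 of 6 higher. Pancreas markers summed to 5.90 to 9.14 against 6.71 to 20.1 CPM with 2 of 5 lower, and *Prss2* at 0 in both groups. The part of these cell types in the differences below was not tested.

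De novo lipogenesis makes fatty acids from carbohydrate in the cytosol of the hepatocyte. Citrate from mitochondria is split by ATP citrate lyase (*Acly*) into acetyl-CoA, which acetyl-CoA carboxylase (*Acaca*, *Acacb*) turns into malonyl-CoA, and fatty acid synthase (*Fasn*) joins these units to palmitate with NADPH that malic enzyme (*Me1*) and the pentose phosphate pathway supply. *Elovl6* lengthens palmitate to stearate, and stearoyl-CoA desaturase (*Scd1*) adds the double bond that makes oleate. Insulin drives the program through SREBP-1c, encoded by *Srebf1*, and glucose through ChREBP, encoded by *Mlxipl*. *Thrsp* (Spot 14) responds to thyroid hormone and carbohydrate and acts with the carboxylase. FGF21 is a hormone made mainly by the liver that acts on adipose tissue, brain, and liver.

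The promoters of 4 start sites are shown because the results below turn on these genes: *Fasn* and *Thrsp*, which had the same order across control vehicle livers, and both start sites of *Mlxipl*, which fell with genotype. Each run holds the 250 bases before the start site, 5′ to 3′ on the gene's strand, from RefSeq on GRCm38.p6. Capitals mark the motifs searched on both strands, which are the sterol response element TCACNCCAC, the E-box CACGTG, the NF-Y box CCAAT, and the Sp1 box GGGCGG.
Fasn, chr11:120824548-120824797, minus strand: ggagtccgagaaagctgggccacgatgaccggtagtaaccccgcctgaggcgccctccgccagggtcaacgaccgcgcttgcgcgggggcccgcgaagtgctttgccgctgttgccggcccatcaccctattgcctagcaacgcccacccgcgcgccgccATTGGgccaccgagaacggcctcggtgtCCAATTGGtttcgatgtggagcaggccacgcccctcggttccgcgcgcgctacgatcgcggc
Thrsp, chr7:97417551-97417800, minus strand: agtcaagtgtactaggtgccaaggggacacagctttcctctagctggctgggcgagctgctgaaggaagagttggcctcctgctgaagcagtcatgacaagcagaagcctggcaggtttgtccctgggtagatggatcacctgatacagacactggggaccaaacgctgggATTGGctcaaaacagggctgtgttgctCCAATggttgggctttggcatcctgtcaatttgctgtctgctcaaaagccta
Mlxipl upstream start, chr5:135089640-135089889, plus strand: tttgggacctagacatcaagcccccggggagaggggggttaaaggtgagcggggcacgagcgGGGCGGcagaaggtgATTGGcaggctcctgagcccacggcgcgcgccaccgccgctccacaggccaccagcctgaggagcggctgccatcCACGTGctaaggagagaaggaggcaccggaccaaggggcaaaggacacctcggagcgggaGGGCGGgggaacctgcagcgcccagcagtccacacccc
Mlxipl downstream start, chr5:135106641-135106890, plus strand: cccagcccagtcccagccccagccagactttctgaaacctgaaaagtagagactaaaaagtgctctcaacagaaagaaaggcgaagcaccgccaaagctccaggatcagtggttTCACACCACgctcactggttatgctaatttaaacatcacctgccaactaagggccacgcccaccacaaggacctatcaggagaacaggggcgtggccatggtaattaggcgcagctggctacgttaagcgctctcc
In the *Fasn* run, the NF-Y box began 90, 62, and 59 bases before the start, and the last pair overlap by 2 bases. In the *Thrsp* run it began 79 and 52 bases before. The *Mlxipl* start sites lie 17001 bases apart, and the E-box stood 98 bases before the upstream one and the sterol response element 136 bases before the downstream one. RefSeq gave 13 windows of 300 bases (250 before and 50 after the start) for 9 of the 10 genes, with none for *Scd1*. The sterol response element was in 1 of the 13 windows and in 1.24% of 32851 mouse promoters of this length, the E-box in 1 and in 7.15%, the NF-Y box in 8 and in 37.4%, and the Sp1 box in 5 and in 35.7%. A match is only a match of letters. Counts per gene add up all start sites, so SREBP-1a and SREBP-1c transcripts, and the isoforms from both *Mlxipl* starts, cannot be told apart.

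The level of the 10 genes is given as CPM for comparisons between livers, and as CPM per kilobase of annotated exon (RPKM) for comparisons between genes. In control vehicle livers *Scd1* had the highest mean, at 167 RPKM, followed by *Thrsp* at 77.6, *Srebf1* at 47.4, *Acly* at 41.9, *Mlxipl* at 40.1, *Me1* at 38.9, *Fasn* at 24.6, *Elovl6* at 9.42, *Acaca* at 5.72, and *Acacb* at 3.75. Neighbours from *Srebf1* to *Me1* in this order differed by less than the SD of *Acly* between livers (18 RPKM), and *Scd1*, which ran from 13.3 to 387 RPKM, overlapped *Thrsp* at 17.7 to 155. In *Lmna* ADKO vehicle livers *Scd1* had a mean of 1337 RPKM and its lowest liver, at 699, was above the highest of *Thrsp*, at 254. *Mlxipl* moved from the fifth place to the seventh and *Me1* from the sixth to the third. The carboxylases *Acaca* and *Acacb* were last in each of the 4 groups, with *Acacb* above *Acaca* only in *Lmna* ADKO FGF21 livers, at 9.90 against 6.01 RPKM. They were level in *Lmna* ADKO vehicle livers, *Acacb* at 7.58 and *Acaca* at 7.65 RPKM. Exon lengths are unions over annotated transcripts, which lowers the RPKM of *Acaca*, with 17074 bases.

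**Figure D1:**
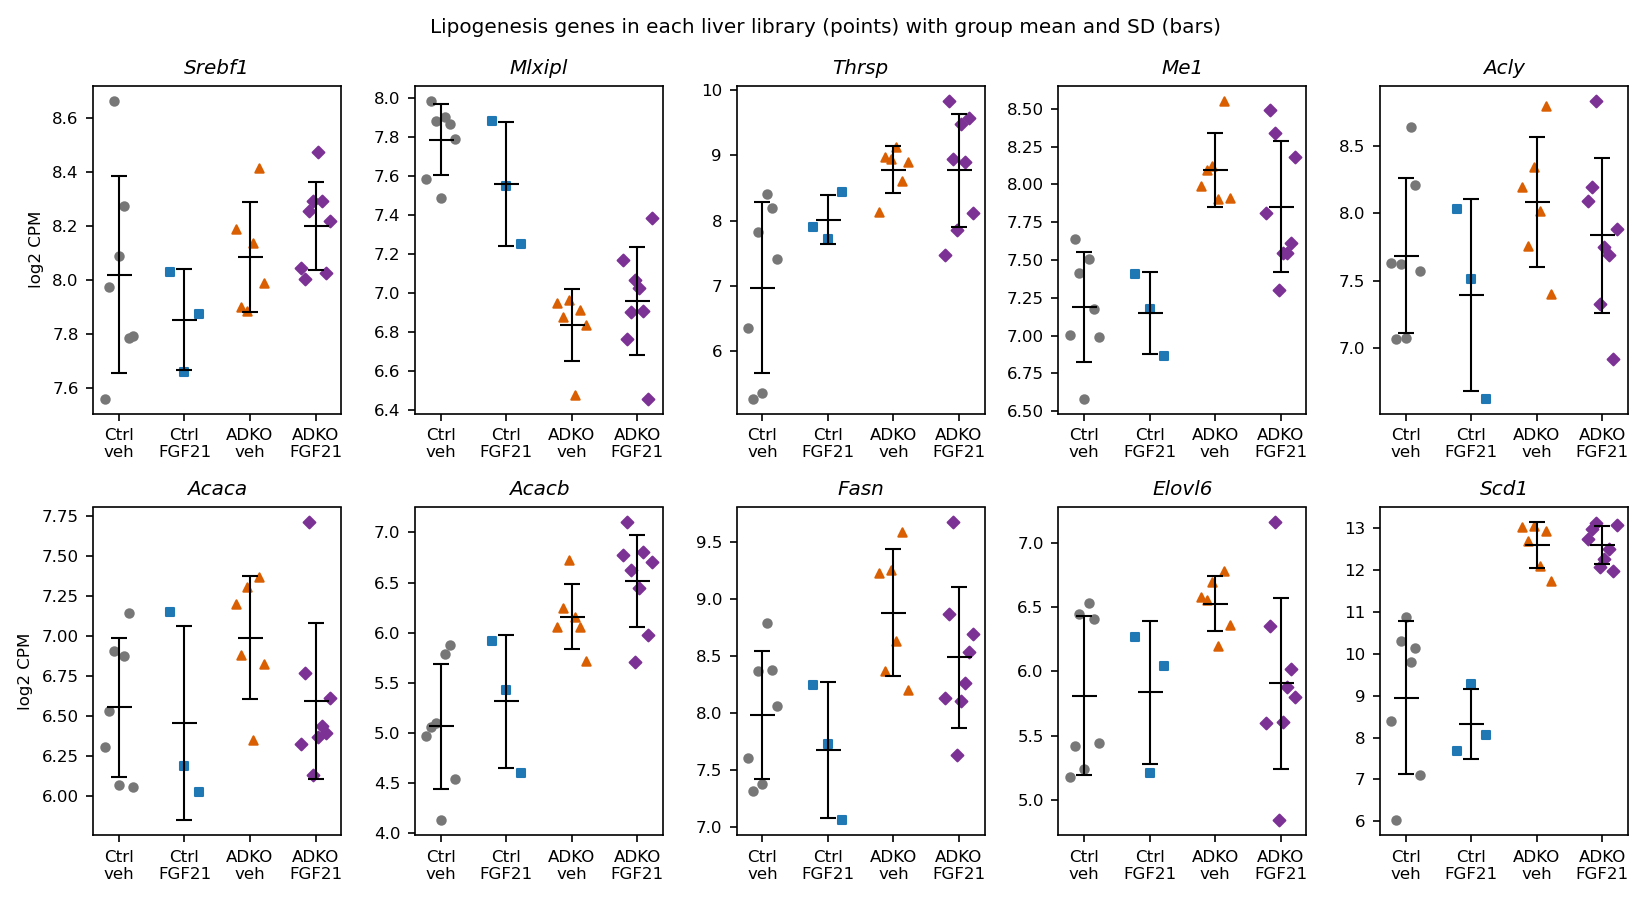
Log2 CPM (y axis, own scale in each panel) of the 10 lipogenesis genes in each library (points) of control vehicle (n = 7), control FGF21 (n = 3), *Lmna* ADKO vehicle (n = 6), and *Lmna* ADKO FGF21 (n = 8) livers, with the group mean and SD as bars. All *Lmna* ADKO points of *Scd1* lie above all control points, and those of *Mlxipl* in vehicle lie below.

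To see whether adipocyte loss of *Lmna* went with another state of hepatic lipogenesis, *Lmna* ADKO livers were compared with controls under vehicle. The enzymes *Scd1*, *Acacb*, and *Me1* and the cofactor *Thrsp* rose, *Mlxipl* fell, and *Srebf1* had a ratio of 1.03. A gene was called at an edgeR adjusted p under 0.05 and a fold change above 1.5. Of the 10 genes 5 were called, 4 higher and 1 lower, where 8.48% of all genes tested were called, 5.12% higher and 3.36% lower. The median log2 fold change was 0.753 over the 10 genes and -0.0198 over all genes with a mean log2 CPM above 2. CPM of the vehicle groups did not overlap for 2 of the 10 genes higher and 1 lower, where this held for 4.22% and 3.73% of all genes. Intervals in what follows are 95% confidence intervals of the edgeR fit.

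*Scd1* (chromosome 19, 44394455 to 44407879) spanned 65.1 to 1895 CPM in control vehicle livers, with a median of 898, and 3421 to 8472 in *Lmna* ADKO vehicle livers, with a median of 7259.8. The lowest *Lmna* ADKO liver was thus above the highest control. The difference was 7.98-fold (interval 3.56 to 17.9), a log2 fold change of 3.00 ± 0.561 (SE) at an edgeR adjusted p of 0.000871, and 3.55 with an adjusted p of 0.00186 when the number series of the animals was a covariate. Its paralogs were scarce: *Scd2* was at 4.45 ± 0.921 CPM (n = 7) in control vehicle and 7.14 ± 1.03 (n = 6) in *Lmna* ADKO vehicle livers, a 1.60-fold rise, and *Scd3* had no count in any control vehicle or control FGF21 liver. The desaturase is also a gene of adipocytes, and the adipocyte markers *Adipoq* and *Plin1* were at or below 0.609 and 0.285 CPM in every library. The part of adipocyte RNA in the level of *Scd1* was not tested. Of 9 adipocyte markers measured, 2 were higher with genotype, *Fabp4* by 2.52-fold and *Cidea*, a lipid droplet gene, which was at 5.6 to 50.4 CPM in *Lmna* ADKO vehicle and 0 to 0.138 in control vehicle livers, and the list summed to 1685 to 2437 against 675 to 2443 CPM with *Lep* at 0 in both groups.

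The spread of *Scd1* among controls was wide. Its highest control vehicle liver had 29.1 times the CPM of the lowest, against 2.48 times in *Lmna* ADKO vehicle, 2.20 times in *Lmna* ADKO FGF21, and 3.04 times in control FGF21 livers. Within the control vehicle group, control vehicle 4 had the most *Scd1*, at 1895 CPM, and next to the least *Fasn* and *Thrsp*, at 166 and 41 CPM. Control vehicle 2, with 65.1 CPM of *Scd1*, had 159 CPM of *Fasn*, 38.7 of *Thrsp*, and the most *Me1* and *Mlxipl* of its group, at 199.5 and 253 CPM.

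Of the carboxylases, which make malonyl-CoA, the form on mitochondria encoded by *Acacb* (chromosome 5, 114146535 to 114250761) rose. It was at 17.4 to 58.8 CPM (median 33.4) in control vehicle and 52.7 to 105 (median 69.0) in *Lmna* ADKO vehicle livers, and control vehicle 5 and 6 reached into the *Lmna* ADKO range. The fold change was 2.02 (interval 1.37 to 2.97), with an edgeR adjusted p of 0.0116. The cytosolic form *Acaca* was at 66.4 to 142 CPM (median 92.4) against 81.7 to 166 (median 133), a 1.34-fold difference (interval 0.933 to 1.92) at an adjusted p of 0.293. Malonyl-CoA at mitochondria blocks fatty acid entry, whereas the cytosolic pool feeds synthesis.

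*Me1* (chromosome 9, 86581371 to 86695953), a cytosolic source of NADPH, was at 95.8 to 199.5 CPM (median 144) in control vehicle and 239 to 375 (median 264) in *Lmna* ADKO vehicle livers, with no overlap. It rose 1.85-fold (interval 1.43 to 2.40, edgeR adjusted p 0.00116). *Fasn* (chromosome 11, 120805846 to 120824547) had the same ratio, 1.85 (interval 1.18 to 2.91), from 159 to 441 CPM (median 267) to 294 to 766 (median 497), and the groups overlapped. Its edgeR adjusted p of 0.0603 missed the threshold, and it passed with DESeq2 at 0.0163, with weakly expressed genes filtered at 0.0312, and without *Lmna* ADKO vehicle 2 (0.0492) or 6 (0.0451) or control vehicle 5 (0.0304). *Acly* was at 134 to 398 CPM (median 197) against 169 to 444 (median 276), a 1.29-fold difference (interval 0.831 to 1.99, adjusted p 0.474). *Elovl6* was at 36.1 to 92.2 CPM (median 43.5) against 73.3 to 109.7 (median 94.7), a 1.53-fold difference (interval 0.991 to 2.38, adjusted p 0.196). The intervals of these last 2 genes thus reach 1.99-fold and 2.38-fold.

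The transcription factors and the cofactor did not move together. *Mlxipl* (chromosome 5, 135089890 to 135138382), which encodes the glucose-responsive factor ChREBP, was at 179 to 253 CPM (median 233) in control vehicle and 89 to 125 (median 119) in *Lmna* ADKO vehicle livers, with no overlap. It fell to 0.517 of the control level (interval 0.430 to 0.622), with an edgeR adjusted p of 8.99e-06. In whole liver, fewer hepatocytes and less RNA per hepatocyte cannot be told apart, and the 10 hepatocyte markers had a median log2 fold change of -0.34 and ranged from *Ahsg*, which fell to 0.485 of control, to *Apob*, at a ratio of 1.29. Besides *Ahsg*, *Serpina1a* and *Cps1* fell, to 0.517 and 0.527, and 7 were not called. Their part in the fall of *Mlxipl* was not tested. *Srebf1* (chromosome 11, 60199089 to 60222581) was at 189 to 405 CPM (median 252) against 236 to 341 (median 268), a ratio of 1.03 with an interval of 0.842 to 1.25. *Thrsp* (chromosome 7, 97412938 to 97417730) was at 38.7 to 339 CPM (median 169.6) against 282 to 557 (median 485), with an overlap. It rose 2.65-fold (interval 1.35 to 5.23) at an edgeR adjusted p of 0.0471, close to the threshold. The call of *Thrsp* was lost without any 1 of 10 libraries, at adjusted p 0.0585 to 0.0887, and held without control vehicle 5 or 6 or *Lmna* ADKO vehicle 1. It was also lost with the number series as a covariate (adjusted p 0.257), in a fit of the 2 vehicle groups alone (0.0805), and without the 3 libraries with low counts on long genes (0.0544).

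**Figure D2:**
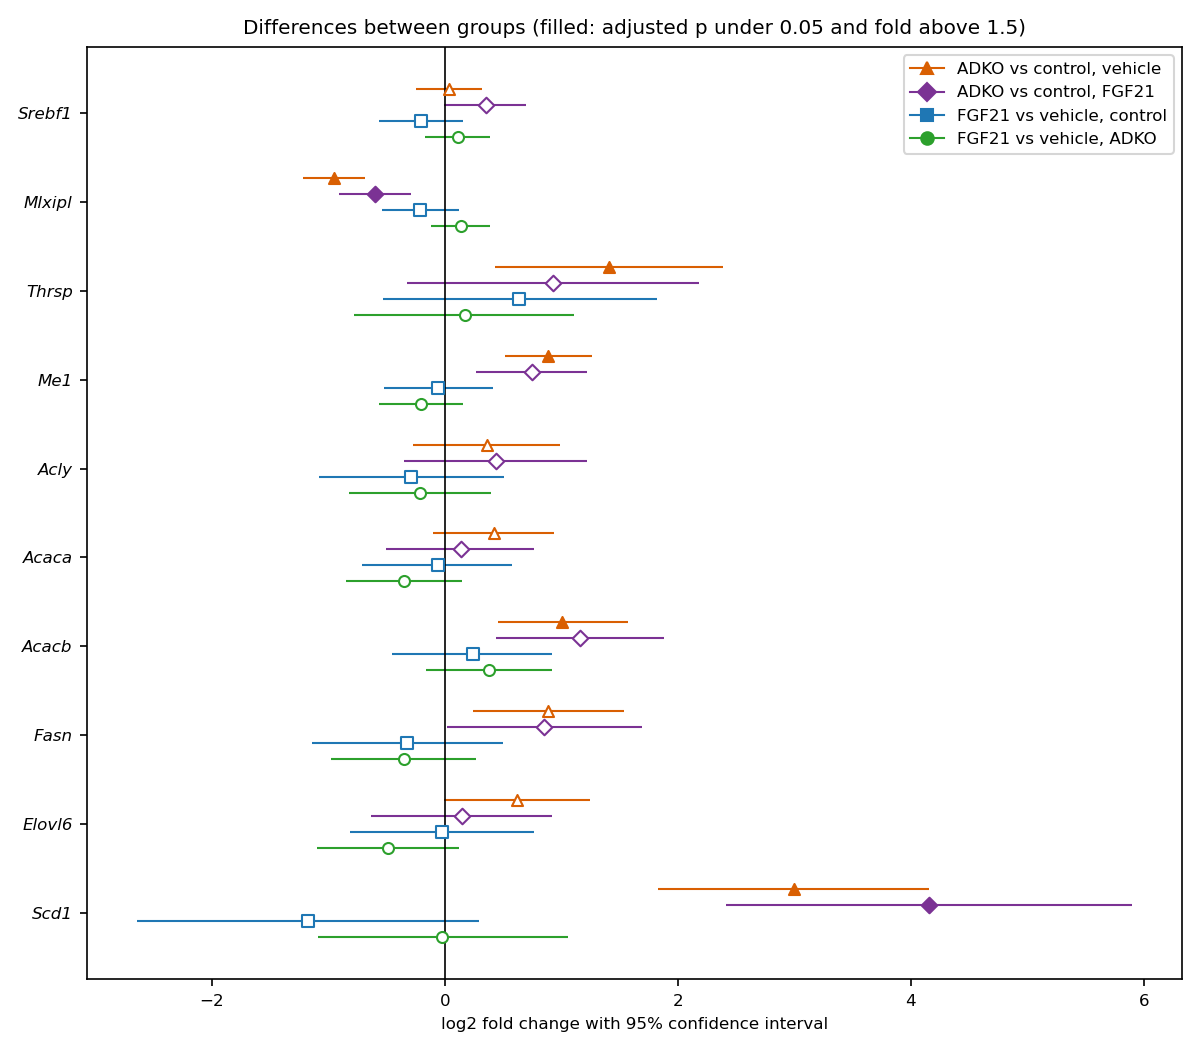
Log2 fold change (x axis) with its 95% confidence interval for each of the 10 genes (rows) between genotypes within a treatment (triangles and diamonds) and between treatments within a genotype (squares and circles), from the edgeR fit of 24 libraries. Filled symbols passed an adjusted p of 0.05 and a fold change of 1.5, and no difference between FGF21 and vehicle did.

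Under FGF21 the genotypes were compared again, with 8 *Lmna* ADKO and 3 control livers. *Scd1* was higher and *Mlxipl* lower, 2 of the 10 genes, where 2.88% of all genes tested were called, 1.61% higher and 1.26% lower. The median log2 fold change of the 10 genes was 0.591, against 0.000315 over all genes with a mean log2 CPM above 2. CPM did not overlap for 1 of the 10 genes, which was higher, where this held for 2.98% of all genes, and for none of those lower, against 2.37%. This comparison shares no library with that under vehicle.

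*Scd1* was at 204, 619, and 266 CPM in the control FGF21 livers and at 4045 to 8891 CPM (median 6333) in *Lmna* ADKO FGF21 livers. The groups did not overlap, and the fold change was 17.8 with a wide interval of 5.31 to 59.9 (edgeR adjusted p 0.00673). The adjusted p rose to 0.0583 without control FGF21 3, and to 0.0552 without the 3 libraries with low counts on long genes, where the log2 fold change was 3.97 and 4.05 against 4.16. *Mlxipl* was at 236, 187, and 152 CPM in control FGF21 livers and at 88 to 167 (median 125) in *Lmna* ADKO FGF21 livers. Only *Lmna* ADKO FGF21 8, at 167 CPM, was above the lowest control.

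*Mlxipl* was 0.660 of control (interval 0.532 to 0.817, edgeR adjusted p 0.0202). Its deviations from the group means went with the slope on gene length at r = 0.653 over 24 libraries, and the lowest library of each FGF21 group, *Lmna* ADKO FGF21 7 and control FGF21 3, was one with low counts on long genes. The call was lost without control FGF21 1 (adjusted p 0.16) or 2 (0.0683), and without *Lmna* ADKO FGF21 2 or 7 as the fold change went under 1.5 (log2 -0.57 and -0.55). It was lost too in a fit of the 2 FGF21 groups alone (0.114) and among 4-digit animal numbers (0.482). With slope as a covariate the log2 fold change was -0.64 at an adjusted p of 0.000573.

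The other 8 genes were not called under FGF21. *Acacb* was at 60.4, 43.0, and 24.2 CPM in control FGF21 livers and 52.0 to 137 (median 102) in *Lmna* ADKO FGF21 livers, a ratio of 2.24 (interval 1.36 to 3.69, edgeR adjusted p 0.063). It passed with DESeq2 (0.00534), with weakly expressed genes filtered (0.0316), with the slope as a covariate (0.0352), and without *Lmna* ADKO FGF21 4 (0.0345) or 7 (0.0401) or control FGF21 1 (0.0456). *Me1* was at 169.5, 145, and 116 CPM against 158 to 360 (median 209.7), a ratio of 1.68 (interval 1.21 to 2.33, adjusted p 0.0679), and passed with DESeq2 (0.021) and without *Lmna* ADKO FGF21 4 (0.0355) or 7 (0.0456). *Fasn*, at 303, 211, and 133 CPM against 197 to 814 (median 339), had a ratio of 1.81 (interval 1.01 to 3.22, adjusted p 0.281). *Thrsp*, at 238, 210.5, and 346 CPM against 177 to 913 (median 485), had a ratio of 1.91 with an interval of 0.803 to 4.52. The ratio was 1.1 for *Acaca* (interval 0.705 to 1.71), 1.35 for *Acly* (0.784 to 2.33), 1.11 for *Elovl6* (0.646 to 1.90), and 1.27 for *Srebf1* (0.996 to 1.62).

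To ask whether FGF21 changed these genes, treated and vehicle livers were compared within each genotype. None of the 10 genes was called in *Lmna* ADKO livers, where 0% of all genes tested was called by edgeR, with 0 of the 10 and 1608 of all genes at an unadjusted p under 0.05. DESeq2 called 15 genes there, none of them among the 10. In controls none of the 10 was called by edgeR or DESeq2, none had an unadjusted p under 0.05, and 0.0542% of all genes were called, 0.0501% higher and 0.00417% lower. CPM of treated and vehicle livers overlapped for each of the 10 genes in both genotypes, where 0.025% of all genes lay wholly higher and 0.0501% wholly lower in *Lmna* ADKO livers, and 0.997% and 0.676% in controls. The difference between the effects in the 2 genotypes was called for none of the 10 by edgeR or DESeq2, against 0.00417% of all genes by edgeR, and none had an unadjusted p under 0.05.

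The intervals show what these tests could have missed. In *Lmna* ADKO livers, *Scd1* had a median of 6333 CPM under FGF21 and 7259.8 under vehicle, a ratio of 0.989 with an interval of 0.470 to 2.08. *Elovl6* had a median of 57.1 against 94.7 CPM and a ratio of 0.712 (interval 0.466 to 1.09), with 6 of 8 treated livers below every vehicle liver and *Lmna* ADKO FGF21 3, at 143 CPM, above all. *Fasn* had a ratio of 0.782 (interval 0.505 to 1.21), *Acaca* 0.785 (0.554 to 1.11), *Acly* 0.862 (0.565 to 1.32), and *Me1* 0.869 (0.676 to 1.12). *Acacb* went the other way, with a median of 102 against 69.0 CPM and a ratio of 1.3 (0.898 to 1.90). The regulators were bounded more closely, *Srebf1* at 1.08 (0.892 to 1.31) and *Mlxipl* at 1.10 (0.922 to 1.31), while *Thrsp* at 1.12 had an interval of 0.583 to 2.16. In controls, with 3 treated livers, the intervals were wider: *Scd1* had a ratio of 0.443 (0.161 to 1.22), *Thrsp* 1.56 (0.692 to 3.52), and *Mlxipl* 0.863 (0.688 to 1.08).

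Compared with control vehicle livers, *Lmna* ADKO FGF21 livers had 5 of the 10 genes called, 4 higher and 1 lower, where 4.87% of all genes tested were called, 3.04% higher and 1.83% lower. The control vehicle libraries also enter the vehicle comparison above. *Scd1* differed 7.90-fold (interval 3.61 to 17.3), *Thrsp* 2.97-fold (1.56 to 5.69), *Acacb* 2.64-fold (1.83 to 3.81), and *Me1* 1.61-fold (1.26 to 2.05), and *Mlxipl* was 0.569 of control vehicle (0.481 to 0.674). The edgeR adjusted p was 0.00117 for *Scd1*, 0.0301 for *Thrsp*, 0.00102 for *Acacb*, 0.00954 for *Me1*, and 4.26e-05 for *Mlxipl*. *Thrsp* lost its call without *Lmna* ADKO FGF21 2, 5, or 7 or control vehicle 1 or 7 (adjusted p 0.0526 to 0.0612), and *Me1* went under the fold threshold without *Lmna* ADKO FGF21 2 (log2 fold change 0.58). *Fasn*, at a ratio of 1.45 (0.948 to 2.21), *Elovl6* at 1.09 (0.726 to 1.64), and *Srebf1* at 1.11 (0.922 to 1.33) were not called.

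Ratios of 2 genes within a liver do not depend on how libraries are scaled. An exact permutation test, two-sided, was used for each, with adjustment over 16 tests (4 ratios in 4 comparisons). The number series of the animals was not a covariate in these tests, so its part in the ratios was not tested. The log2 ratio of *Scd1* to *Fasn*, the desaturase to the synthase, was 0.97 ± 1.68 (SD, n = 7) in control vehicle and 3.72 ± 0.344 (n = 6) in *Lmna* ADKO vehicle livers, higher by 2.75 (exact permutation p 0.00233, adjusted 0.0186). Of the controls, control vehicle 4 alone reached the *Lmna* ADKO range. Under FGF21 the ratio was 0.66 ± 1.10 (n = 3) and 4.11 ± 0.442 (n = 8), higher by 3.45 (exact p 0.00606, the smallest possible with 3 against 8, adjusted 0.0205). The genotype difference was thus larger for *Scd1* than for *Fasn* within the same livers.

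The log2 ratio of *Mlxipl* to *Srebf1* was -0.23 ± 0.35 (n = 7) in control vehicle and -1.25 ± 0.284 (n = 6) in *Lmna* ADKO vehicle livers, with no overlap (exact permutation p 0.00117, adjusted 0.0186). Under FGF21 it was -0.29 ± 0.287 (n = 3) and -1.24 ± 0.262 (n = 8), again with no overlap (exact p 0.00606, adjusted 0.0205). Without control FGF21 1 or 3, the adjusted exact permutation p under FGF21 was 0.0593 for this ratio and for that of *Scd1* to *Fasn*. Fewer livers raise the smallest possible p. The differences were then -0.87 and -1.11 for *Mlxipl* to *Srebf1* and 2.84 and 3.62 for *Scd1* to *Fasn*. Relative to the insulin-responsive factor, the transcript of the glucose-responsive factor was thus lower in all 14 *Lmna* ADKO livers than in any of the 10 controls. The 3 libraries with low counts on long genes had the lowest ratio of their groups. These were control vehicle 3 at -0.78, control FGF21 3 at -0.62, and *Lmna* ADKO FGF21 7 at -1.56. Between FGF21 and vehicle this ratio differed by -0.06 in controls and 0.01 in *Lmna* ADKO livers (exact permutation p 0.792 and 0.944).

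The log2 ratio of *Acacb* to *Acaca*, the mitochondrial to the cytosolic carboxylase, was -1.49 ± 0.297 (n = 7) in control vehicle, -1.14 ± 0.342 (n = 3) in control FGF21, -0.83 ± 0.425 (n = 6) in *Lmna* ADKO vehicle, and -0.08 ± 0.526 (n = 8) in *Lmna* ADKO FGF21 livers. It was higher in *Lmna* ADKO than in control livers by 0.66 under vehicle (exact permutation p 0.00641, adjusted 0.0205) and by 1.06 under FGF21 (exact p 0.0121, adjusted 0.0323). The call under FGF21 was lost without *Lmna* ADKO FGF21 1, 2, 5, 6, or 8 or control FGF21 1 or 3, at adjusted p 0.0639 to 0.102. It was the 1 ratio that passed between treatments, higher by 0.75 in FGF21-treated *Lmna* ADKO livers (exact p 0.0196, adjusted 0.0449). That call was lost without any 1 of 10 libraries, those other than *Lmna* ADKO FGF21 3, 4, or 7 or *Lmna* ADKO vehicle 4, at adjusted p 0.0551 to 0.0808. In controls the treatment difference was 0.35 (exact p 0.142). *Lmna* ADKO FGF21 3, at -1.09, was the lowest treated liver, below the vehicle mean, and the one with the most *Acaca*, at 209.8 CPM. *Lmna* ADKO FGF21 4 and 7, at -0.43 and -0.42, also lay within the *Lmna* ADKO vehicle range of -1.31 to -0.19. The other treated livers lay above that range. The log2 ratio of *Elovl6* to *Fasn* passed in no comparison, with differences of -0.18 and -0.74 between genotypes and 0.33 and -0.23 between treatments and the smallest exact permutation p at 0.0303 (adjusted 0.0606).

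**Figure D3:**
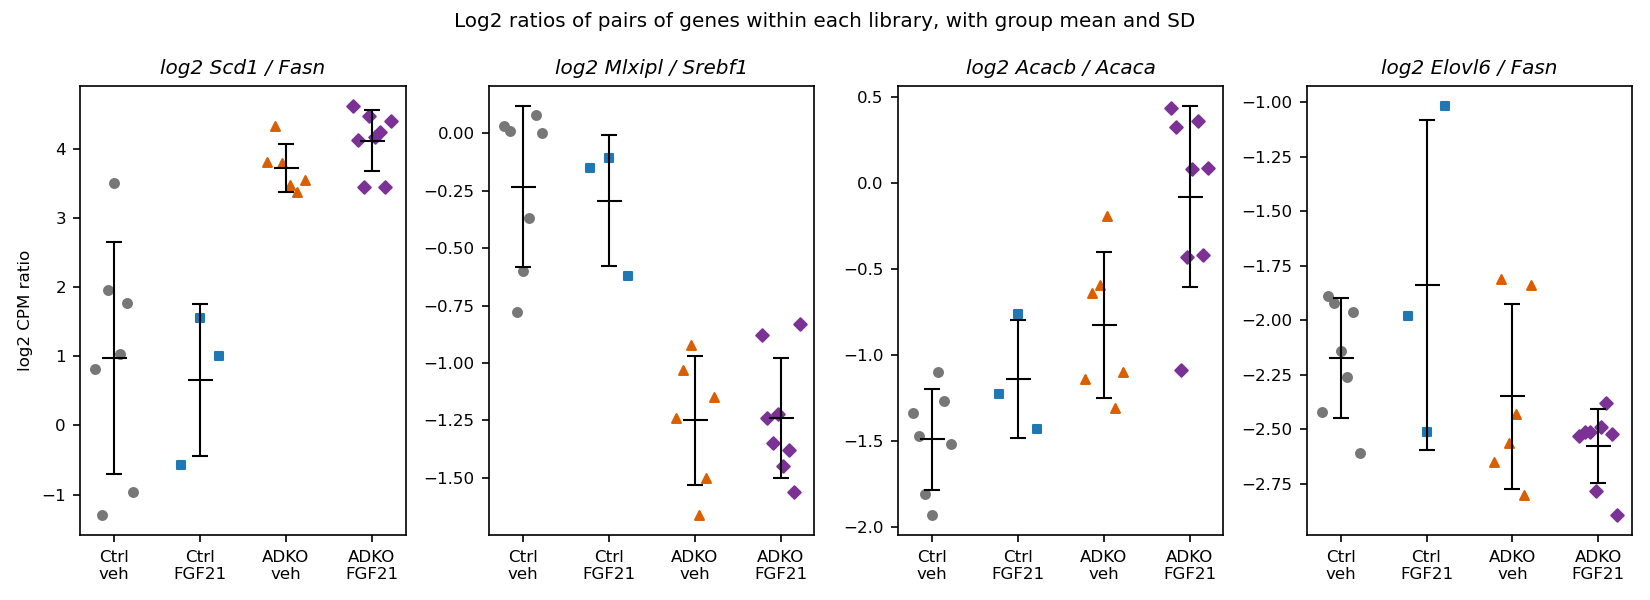
Log2 ratio of CPM (y axis) of *Scd1* to *Fasn*, *Mlxipl* to *Srebf1*, *Acacb* to *Acaca*, and *Elovl6* to *Fasn* in each library (points) of the 4 groups, with the group mean and SD as bars. In the second panel all 14 *Lmna* ADKO livers lie below all 10 control livers, and in the first panel control vehicle 4 alone reaches the *Lmna* ADKO range.

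Within groups the genes also varied between livers. The SD of log2 CPM within groups was 1.10 for *Scd1*, 0.908 for *Thrsp*, 0.584 for *Fasn*, 0.568 for *Acly*, and 0.559 for *Elovl6*, against a median of 0.228 over 9924 expressed genes (mean log2 CPM of 2 or more). *Scd1* exceeded 99.5% of those genes and *Thrsp* 99.2%. *Srebf1* at 0.251 and *Mlxipl* at 0.235 lay near the median. After the group means were taken out, *Acly* and *Fasn* followed each other most closely, with r = 0.838 over the 24 libraries, followed by *Elovl6* and *Acaca* at 0.834 and *Acaca* and *Fasn* at 0.82. Over the 45 pairs the median r was 0.384, with 16 pairs above 0.5 and 3 below 0, and the 16 included every pair among *Fasn*, *Acaca*, *Acacb*, *Acly*, *Elovl6*, and *Me1*. *Scd1* stood apart from this group, with r = 0.384 to *Fasn* and 0.00763 to *Me1*, and so did *Srebf1*, with r from -0.0244 to 0.311. The points share each library's depth and scaling. Deviations from the group means also went with the slope on gene length for *Acly* (r = 0.511), *Acacb* (0.402), and *Acaca* (0.335). For *Fasn*, *Me1*, and *Elovl6* this r was 0.134, 0.16, and -0.0745. The pairs were not tested without the 3 libraries with low counts on long genes.

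**Figure D4:**
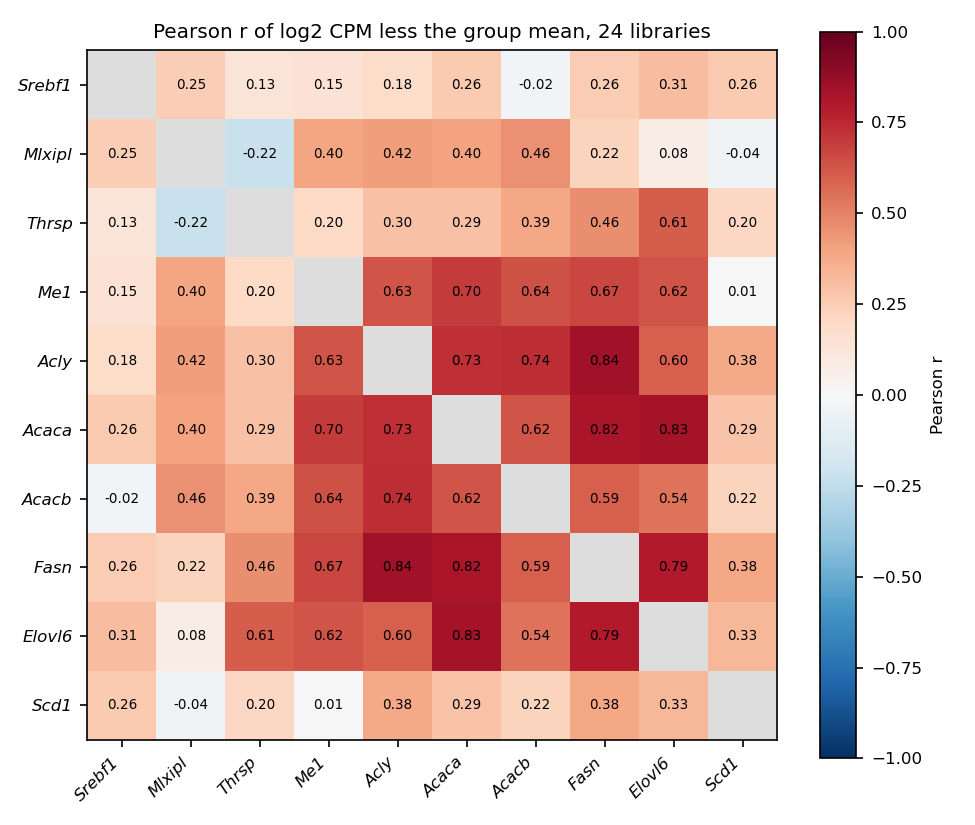
Pearson r between each pair of the 10 genes over 24 libraries, of log2 CPM less the group mean (color scale from -1 to 1, values in the cells). The enzymes *Me1*, *Acly*, *Acaca*, *Acacb*, *Fasn*, and *Elovl6* form a block with r from 0.543 to 0.838, and *Scd1*, *Srebf1*, and *Mlxipl* lie outside it. *Thrsp* has r of 0.607 with *Elovl6* and of 0.196 to 0.462 with the other enzymes of the block.

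*Fasn* was compared with *Srebf1*, *Mlxipl*, and the cofactor *Thrsp* within each group of at least 6 livers, as 9 relations of log2 CPM with exact permutation of pairings. In control vehicle livers *Fasn* and *Thrsp* had the same order across all 7 mice, with r = 0.977 (exact permutation p 0.000198, adjusted 0.00179) and Spearman's rho of 1.0 (exact p 0.000397, adjusted 0.00357). Without the 2 livers farthest from the median of *Thrsp* r was 0.967 over 5 livers. The order ran from control vehicle 2, with 159 CPM of *Fasn* and 38.7 of *Thrsp*, to control vehicle 5, with 441 and 339 CPM. In *Lmna* ADKO vehicle livers r between these genes was -0.559 (exact permutation p 0.25) and in *Lmna* ADKO FGF21 livers 0.39 (exact p 0.351), and whether the groups differ was not tested. The 3-digit and 4-digit animals could not be taken apart there, since 6 of the 7 controls have 3 digits.

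*Srebf1* gave r with *Fasn* of 0.407, 0.604, and -0.234 in control vehicle, *Lmna* ADKO vehicle, and *Lmna* ADKO FGF21 livers, and rho of 0.214, 0.371, and -0.595. *Mlxipl* gave r of 0.467, 0.417, and -0.22 and rho of 0.214, 0.657, and -0.429. The exact permutation p of these 6 relations ran from 0.132 to 0.662 and none passed.

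**Figure D5:**
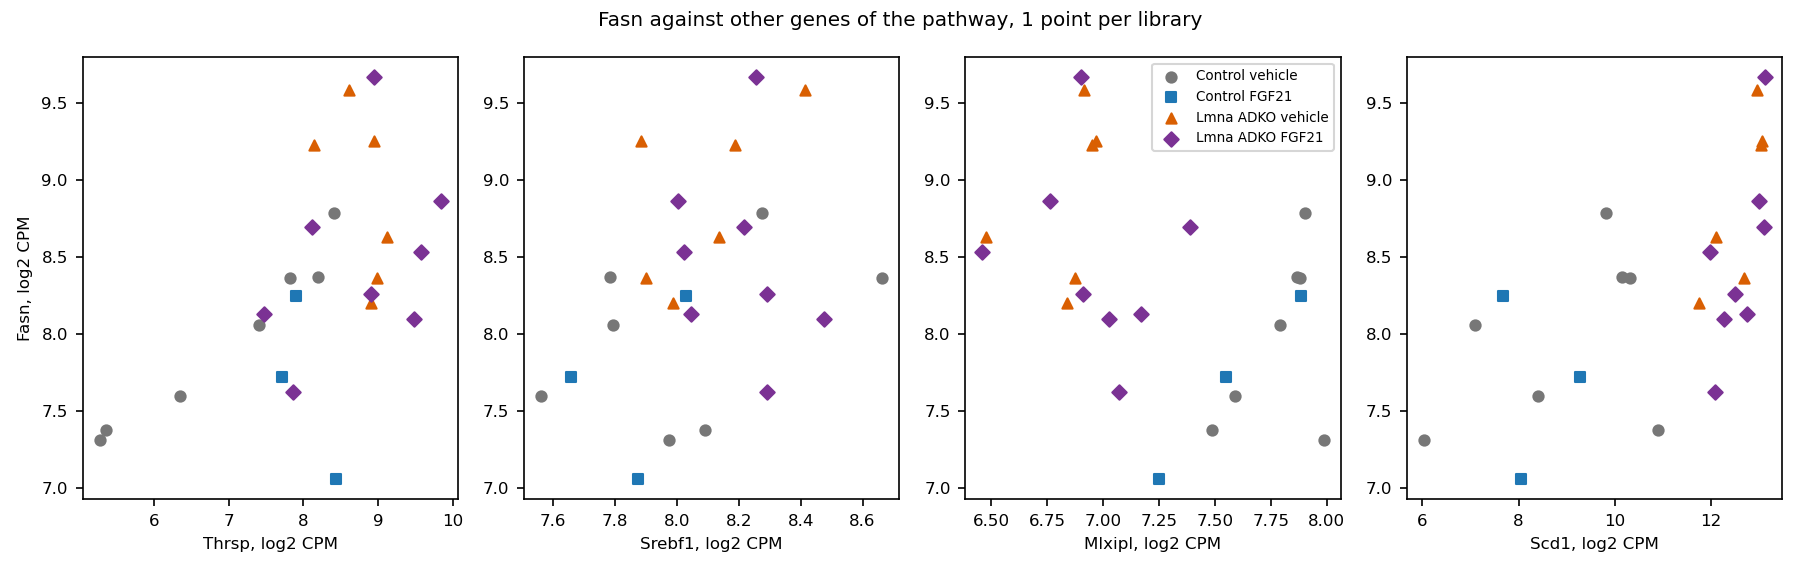
*Fasn* (y axis, log2 CPM) against *Thrsp*, *Srebf1*, *Mlxipl*, and *Scd1* (x axes, log2 CPM), with 1 point for each of 24 livers and a symbol for each group. In the panel of *Thrsp* the 7 control vehicle livers (circles) rise in the same order on both axes, with r = 0.977, and the other groups do not line up.

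Other genes were ranked by how closely they followed the mean of the 10 across the 24 livers, after the group means were taken out, among 9914 expressed genes (mean log2 CPM of 2 or more). The closest over all 24 libraries was *Pklr*, the liver pyruvate kinase, with r = 0.834, followed by *Pygl*, the liver glycogen phosphorylase, at 0.817 and *Pgd*, of the pentose phosphate pathway, at 0.787. *Mis12* (0.741), *Umps* (0.734), *Pdhb*, a subunit of pyruvate dehydrogenase (0.726), *Frmd8* (0.725), and *Hcn3* (0.725) came next, and *Med16* (-0.801), *Ino80c* (-0.734), and *Sgsm3* (-0.661) were at the other end. Without the 3 libraries with low counts on long genes the order changed: *Mis12* had r = 0.834 at rank 2, *Pgd* 0.818 at rank 3, *Pygl* 0.812 at rank 4, and *Pklr* 0.804 at rank 5, with *Med16* at -0.842. None of the genes named here ranked first in that set. *Umps* was at rank 7, *Hcn3* at 14, *Frmd8* at 20, and *Pdhb* at 21. *Pklr* ran from 182 to 422 CPM in control vehicle and from 356 to 525 in *Lmna* ADKO vehicle livers, a ratio of 1.43 that was under the fold threshold (edgeR adjusted p 0.0471).

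The steps around the 10 genes were read from lists of the pathway. Among 12 genes that supply citrate, acetyl-CoA, and NADPH, 4 rose with genotype under vehicle and 4 under FGF21, with none lower, where 5.12% and 1.61% of all genes rose and 3.36% and 1.26% fell. These shares hold for each list that follows. *Pgd*, which makes NADPH, was at 40.9 to 64.6 CPM in control vehicle and 72 to 110 in *Lmna* ADKO vehicle livers, a 2-fold rise (edgeR adjusted p 2.58e-05). The transketolase *Tkt* rose 1.92-fold, the acetyl-CoA synthetase *Acss2* 1.78-fold, and the transaldolase *Taldo1* 1.54-fold. Under FGF21 the ratios were 1.99 for *Pgd*, 1.55 for *Tkt*, 2.80 for *Acss2*, and 1.56 for *Taldo1*. The list's median log2 fold change was 0.48 under vehicle and 0.45 under FGF21.

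Among 17 genes that lengthen, desaturate, or activate the product, 9 rose under vehicle and 8 under FGF21, with none lower and medians of 0.75 and 1. The elongase of polyunsaturated chains *Elovl5* was at 319.7 to 534 CPM in control vehicle and 835 to 1494 in *Lmna* ADKO vehicle livers, a 2.77-fold rise (edgeR adjusted p 5.82e-07). *Elovl7* rose 6.07-fold from a low level, 0.234 to 0.875 against 1.27 to 4.59 CPM, *Elovl3* rose 4.22-fold, and *Gpam*, which starts glycerolipid synthesis, rose 2.28-fold. Under FGF21 *Elovl5* rose 3.15-fold, the desaturase *Fads2* 2.71-fold, *Gpam* 2.12-fold, and the acyl-CoA synthetase *Acsl5* 2.02-fold. Of the other elongases, *Elovl1* and *Elovl2* were not called in either comparison, and *Elovl3* and *Elovl7* not under FGF21 (edgeR adjusted p 0.091 and 0.0533).

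Of 14 genes of SREBP processing and LXR control, 2 rose in both comparisons, with medians of -0.21 and 0.01. Those were the ER anchors *Insig2*, by 2.30-fold (edgeR adjusted p 0.000288) and 2.99-fold (0.00202), and *Insig1*, by 1.95-fold and 2.68-fold. *Insig2* was at 57.3 to 169.9 CPM in control vehicle and 187 to 398 in *Lmna* ADKO vehicle livers. Of 10 sterol genes driven by SREBP2, 5 rose in each comparison, led by the mevalonate pathway enzymes *Mvd* (3.21-fold and 4.36-fold) and *Hmgcs1* (3.04-fold and 3.57-fold), with *Sqle* at 2.82-fold under vehicle and *Lss* at 2.25-fold under FGF21. The medians were 0.95 and 1.47.

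For the lists tied to ChREBP and glucose, the shares of all genes called in either direction were 8.48% under vehicle and 2.88% under FGF21. Of 12 ChREBP partners and targets, 1 rose under vehicle, *Gpd1* by 1.63-fold (edgeR adjusted p 0.000755), and 1 fell, *Tm6sf2*, to 0.538 of control, while under FGF21 *Txnip* (0.512) and *Tm6sf2* (0.589) fell, with medians of 0.13 and -0.01. Among 10 genes of glucose entry and insulin control, 1 rose and 1 fell under vehicle, and none was called under FGF21. The gene that fell was the insulin receptor substrate *Irs2*, to 0.529 of control, from 14 to 24 CPM to 7.56 to 13.1 CPM (edgeR adjusted p 0.0072). Of 12 regulators of acetyl-CoA carboxylase, the kinase subunit *Prkab2* rose 1.70-fold under vehicle, *Mid1ip1*, the paralog of *Thrsp* that promotes carboxylase polymers, fell to 0.643 of control, and under FGF21 the biotin ligase *Hlcs* rose 1.56-fold, with medians of -0.16 and 0.00. Against control vehicle, *Lmna* ADKO FGF21 livers had 7 of the 10 sterol genes, 10 of the 17 product genes, and 4 of the 12 supply genes higher and none lower, where 3.04% of all genes were higher. No gene of these 7 lists was called between FGF21 and vehicle in either genotype by edgeR.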

How the data were processed

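PolyA-selected, dUTP-stranded liver libraries were sequenced. The submitters' processing notes name cutadapt 4.8, FastQC 0.11.8, STAR 2.7.8a, RSEM 1.3.3, and the build GRCm38. The authors deposited raw counts per Ensembl gene, after genes with 0 counts in every sample had been removed. The strand setting of the counting was not given in the sources used here.

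Counts of 23972 genes in 24 libraries were fitted as 4 groups with edgeR 4.0.16 (quasi-likelihood test, TMM scaling, no filter on low counts) in R 4.3.3, and p-values were adjusted by the Benjamini-Hochberg method over all genes. A gene was called at an adjusted p under 0.05 and a fold change above 1.5. SEs were derived from the F statistic. Log2 CPM had a prior count of 2. Gene names, positions, and exon lengths were taken from GENCODE M21, which held 23926 of the genes. Ratios and relations were tested with exact permutation tests in SciPy 1.17.1. All 10 genes were reported, with up to 4 of the called genes of largest change from each pathway list and the genes most like the mean of the 10. DESeq2 1.42.0, other scaling, filters, covariates, and left-out libraries were tried.

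The 10 genes, the pathway and marker lists, and the 3 libraries set aside were chosen with earlier results of these data known. Totals of 19863304 to 21510054 counts per library bound the precision by counting error only. The p-values of group differences set them against the spread between mice. No pair of libraries within a group was a duplicate: chi-square per degree of freedom was 14.1 to 196 over 67 pairs. Reads shared by paralogs (*Acaca* and *Acacb*, the *Scd* genes) may be split by the counting. Some genes of the pathway lists are not reported here.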

Additional observations from a re-analysis of the deposited data

Results flagged for a closer look

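The highest or lowest library was tested for its distance from the rest in 42 sets, and in 3 the gap to its nearest neighbour exceeded the 95% critical value of Dixon's test as a share of the group's range. At this level a few such sets arise by chance. *Acaca* in *Lmna* ADKO FGF21 3 was the highest of 8 livers, at 209.8 CPM, with a gap of 0.595 of the range. *Me1* in *Lmna* ADKO vehicle 5 was the highest of 6 livers, at 375 CPM, with a gap of 0.66. *Mlxipl* in *Lmna* ADKO vehicle 4 was the lowest of 6 livers, at 89 CPM, with a gap of 0.737.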

How the results depend on the processing

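Of 1360 fold changes of the 10 genes under alternatives, 1316 kept their direction and side of the threshold or were never past it, 30 lost the threshold, 14 gained it, and no called fold change reversed. Among values never past the threshold, 65 fold changes of 17 results, 10 ratios of 4 results, and 4 correlations changed sign. Of the 10 genes under FGF21, DESeq2 called 4 between genotypes, and 1 was called in a fit of only the groups compared, without the 3 libraries with low counts on long genes, and among 4-digit animals. Leaving out 1 library gave 1 to 4 there and 3 to 5 for *Lmna* ADKO FGF21 against control vehicle. *Thrsp* in that comparison lost its call in a fit of only the groups compared (adjusted p 0.104), with the number series (0.0759), and without the 3 libraries (0.0622). Over all genes, calls without the fold threshold were 3623 for genotype under vehicle and 2192 for *Lmna* ADKO FGF21 against control vehicle. With the fold threshold, calls for genotype under FGF21 were 344 with only the groups compared, 402 without the 3 libraries, and 148 among 4-digit animals. Leaving out 1 library gave 339 to 1149 such calls (highest without *Lmna* ADKO FGF21 7, lowest without control FGF21 3). For treatment in controls they were 38 with DESeq2, 0 with the number series, and 3 to 26 leaving out 1 library. For treatment in *Lmna* ADKO livers they were 15 with DESeq2, 2 among 4-digit animals, and 0 to 61 leaving out 1 library (61 without *Lmna* ADKO FGF21 3). For the interaction they were 11 with DESeq2, 2 with DESeq2 size factors, 2 with low counts filtered, 0 with the number series, 3 with the length slope, 5 without the 3 libraries, and 0 to 5 leaving out 1 library. Without the 3 libraries, where control FGF21 had 2 livers, the log2 ratio differences of *Acacb* to *Acaca* were 0.61, 0.97, and 0.80 (genotype under vehicle, genotype under FGF21, treatment in *Lmna* ADKO; adjusted p 0.0741, 0.111, and 0.0741), *Mlxipl* to *Srebf1* under FGF21 was -1.06 (0.0741), and *Scd1* to *Fasn* was 2.91 and 3.72 (0.0519 and 0.0741). Leaving out 1 library gave 0.92 to 1.25 and 0.65 to 0.89 for *Acacb* to *Acaca* (FGF21 and treatment), -1.11 to -0.85 for *Mlxipl* to *Srebf1*, 2.84 to 3.9 for *Scd1* to *Fasn*, and -1.08 to -0.33 for *Elovl6* to *Fasn*, all under FGF21 unless named, and the last passed without control FGF21 2 (exact permutation adjusted p 0.0444). The r of *Fasn* with *Thrsp* in control vehicle was 0.967 without the 2 farthest livers (exact permutation adjusted p 0.075). The causes of these changes were not tested, and fewer libraries raise the smallest possible permutation p. No paired analysis was possible because the labels give animal numbers that no groups share.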
